A study of Mus musculus with 8 samples.

Results

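A group of 8 alpha-defensin genes of the mouse, Defa17, Defa23, Defa24, Defa26, Gm14851, Gm15284, Gm15292 and AY761184, were described in single epithelial cells of the small intestinal crypt. The list was taken as given. Its members had been chosen by measured values of these same cells (UMI counts of defensin features in Paneth cells), so their co-expression is a description here and not a finding. They are 8 of 28 alpha-defensin features and of 27998 features in all, and each of the 8 had UMIs in both matrices. A UMI (unique molecular identifier) stands for 1 captured transcript. Defa21 and Gm15308, a pair of defensins outside the list, served for comparison. This pair was also named with earlier results of these cells known. Its opposition to the members, and every ratio between them, is hence a description as well.

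The transcriptomes came from EpCAM+ DAPI- cells sorted from crypts of adult female mice on a C57BL/6 background. KO mice were homozygous for Ctnnb1 Δi.enh, a germline deletion, made by CRISPR/Cas9, of ieCtnnb1, an intestinal enhancer upstream of the beta-catenin gene Ctnnb1. The controls, labelled WT, were per the study's legends H11 i.enh reporter mice, which carry at the H11 locus a Shh promoter and the ieCtnnb1 core sequence in front of LacZ, and thus hold an added copy of part of the enhancer. The labels list 4 samples per genotype, but animals were pooled and each genotype was deposited as 1 matrix, which leaves the animal behind each cell unknown. No replicate spread exists, no test between genotypes was possible, and every interval below is a 95% interval that covers counting error only. The reporter allele and the library run with the genotype and cannot be told apart from it.

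Paneth cells sit at the crypt base beside the stem cells and secrete granules of antimicrobial proteins, among them lysozyme and the alpha-defensins, which in mice are also called cryptdins. A defensin is made as a precursor with a signal peptide and an acidic pro-piece. In mouse Paneth cells the matrix metalloproteinase matrilysin (Mmp7) cuts off the pro-piece and frees the active peptide, whose cysteines are joined in disulfide bonds. The genes lie in one cluster of recent duplicates, and a subset, the cryptdin-related sequences, encode peptides with repeats of cysteine. Wnt/beta-catenin signaling is known to be required for Paneth cell maturation.

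All 8 members lie in the defensin cluster of chromosome 8 (build GRCm38, annotation GENCODE M21), between Defa23 at chr8:21055047-21056016 and Defa24 at chr8:21734494-21735471, and each has 1 annotated protein-coding transcript of 2 exons. They fall into 2 kinds. Defa23, Gm15284 (chr8:21134642-21135598), Gm15292 (chr8:21249754-21250556), Defa26 (chr8:21618183-21618972), Defa17 (chr8:21655780-21656735) and Defa24 lie on the plus strand and have 279 coding bases with 6 cysteine codons. Gm14851 (chr8:21095074-21096050) and AY761184 (chr8:21702519-21703645) lie on the minus strand and have 348 coding bases with 11 cysteine codons, as Gm7849 and Gm7861 also have. The rule did not use this division, and it returns below in the comparison of genotypes. Coding sequences of member pairs on the same strand were identical at a median of 94.3% of aligned positions (88.9% to 98.6%, 16 pairs), with Gm15284 and Defa24 at 98.6% and Gm14851 and AY761184 at 96.8%. Pairs on opposite strands had a median of 64.1% (12 pairs). The 6 plus-strand members against Defa21 and Gm15308 had a median of 81.8% (79.8% to 83.5%, 12 pairs). The last 120 coding bases, which hold the mature peptide of a plus-strand defensin, are shown for both kinds and for Defa21, from the GRCm38 genome in the sense of the gene, with cysteine codons in capitals:
Defa23: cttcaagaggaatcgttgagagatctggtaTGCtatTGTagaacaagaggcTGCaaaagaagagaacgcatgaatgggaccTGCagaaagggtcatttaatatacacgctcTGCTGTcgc
Defa24: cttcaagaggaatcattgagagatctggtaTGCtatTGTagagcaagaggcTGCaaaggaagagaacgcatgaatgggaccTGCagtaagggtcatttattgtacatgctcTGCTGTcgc
Gm14851: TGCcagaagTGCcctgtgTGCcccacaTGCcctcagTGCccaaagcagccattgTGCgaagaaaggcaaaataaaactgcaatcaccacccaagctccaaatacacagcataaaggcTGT
AY761184: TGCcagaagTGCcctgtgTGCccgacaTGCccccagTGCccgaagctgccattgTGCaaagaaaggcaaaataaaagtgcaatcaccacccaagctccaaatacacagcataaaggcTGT
Defa21: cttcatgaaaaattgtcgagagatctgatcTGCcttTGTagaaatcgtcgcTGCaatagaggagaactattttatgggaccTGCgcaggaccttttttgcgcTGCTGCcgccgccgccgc

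Defa23 and Defa24 have their cysteine codons at the same places. In Gm14851 and AY761184 the shown stretch holds 7 cysteine codons, the first 5 of them each 3 codons apart.

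Promoters (250 bases before to 50 after the start, RefSeq, GRCm38.p6) were matched for 16 of the 28 features, among them 3 members, Defa23, Gm14851 (RefSeq name Defa38) and Gm15284 (RefSeq name Defa30). They are shown for the 2 members of different kind after which the group is named and for Defa21, which varied in the opposite direction across cells, with TATAAA and ATCAAAG in capitals:
Defa23 (chr8:21054790-21055089, plus strand): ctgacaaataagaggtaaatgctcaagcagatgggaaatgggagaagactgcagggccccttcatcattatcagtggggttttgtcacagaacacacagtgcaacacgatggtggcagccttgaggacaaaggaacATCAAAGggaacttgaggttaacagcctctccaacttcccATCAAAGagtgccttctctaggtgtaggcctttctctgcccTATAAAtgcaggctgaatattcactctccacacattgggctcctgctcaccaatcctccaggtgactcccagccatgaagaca
Gm14851 (chr8:21096001-21096300, minus strand): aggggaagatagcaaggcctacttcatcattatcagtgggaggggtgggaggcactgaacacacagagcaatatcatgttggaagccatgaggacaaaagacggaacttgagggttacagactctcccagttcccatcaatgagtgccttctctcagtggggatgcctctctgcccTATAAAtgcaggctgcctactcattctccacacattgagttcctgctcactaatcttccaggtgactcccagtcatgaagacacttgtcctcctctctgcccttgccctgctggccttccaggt
Defa21 (chr8:21025295-21025594, plus strand): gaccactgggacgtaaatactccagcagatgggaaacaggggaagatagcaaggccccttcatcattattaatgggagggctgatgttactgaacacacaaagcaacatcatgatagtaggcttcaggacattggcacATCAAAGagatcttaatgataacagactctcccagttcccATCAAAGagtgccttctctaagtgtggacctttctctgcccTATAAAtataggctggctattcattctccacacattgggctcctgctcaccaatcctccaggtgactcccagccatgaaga

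Motifs were searched on both strands as exact letters. The letters CAAAG are common to the HNF4 motif and to both TCF/LEF forms, so matches of these may overlap. TATAAA, the core of the TATA box, was present in 16 of the 16 promoters against 13.6% of all 32851 promoters of the table. ATCAAAG, a sequence bound by TCF/LEF factors, the partners of beta-catenin, was present in 12 of the 16 against 3.73% of all. It occurs in Defa23 at positions -114 and -74 from the annotated start, in Defa21 at -112 and -72 and in Gm15284 at -142. The window of Gm14851 did not hold it. TATAAA lies at -33 in Defa23, at -31 in Defa21, at -61 in Gm15284 and at -74 in Gm14851. The annotated starts are thus not the same landmark, and positions counted from them cannot be compared between genes. TTCAAAG, the other TCF/LEF form searched, was in 0 of the 16 (5.14% of all), as were the motif AGATAA of GATA factors (11.2%), the E-box CACGTG (7.15%) and the HNF4 motif CAAAGTCCA (0.475%). The promoters are copies of one another (Defa23 and Defa21 were identical at 81.6% of aligned positions), so that the 16 are not independent sequences.

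Several members share long stretches with another defensin, and reads from them cannot be assigned with certainty. Of the 90-base windows of the transcript, 89.4% for Defa23 were also present in another feature of the list, chiefly Defa-rs7, and 90.9% for Defa17, all of them in Defa3. The share was 21.4% for Gm14851, 4.53% for Gm15284, 4.39% for Gm15292, 4.59% for Defa26, and 0% for Defa24 and AY761184. Every 90-base window of Defa-rs7 also occurs in Defa23, and Defa-rs7 itself had 24 and 11 UMIs in the Paneth cells of WT and KO. Levels of Defa23 and Defa17 are hence uncertain, and to a lesser degree that of Gm14851. Those of the comparison pair are uncertain too, with 45.3% of the windows of Defa21 and 99.7% of those of Gm15308 found elsewhere in the list.

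The WT matrix held 15987 barcodes and 134876816 UMIs and the KO matrix 12763 barcodes and 123794575 UMIs, and 57 barcode sequences occurred in both. Cells with at least 200 genes and at most 30% mitochondrial UMIs were kept (13095 in WT and 8658 in KO). A Paneth cell was a kept cell with at least 20% of its UMIs from symbols starting with Defa, which gave 4893 WT cells (37.4% of kept cells, median 17569 UMIs) and 1943 KO cells (22.4%, median 12767 UMIs). Defa17, Defa23, Defa24 and Defa26 entered this cut themselves, whereas the other 4 members did not. Since the cut also took in barcodes with few UMIs, cells with at least 5000 UMIs (3289 in WT, median 23290, and 1024 in KO, median 46319, called deep cells) and cells under 2000 UMIs (1347 and 806, called shallow cells) were also read separately. In the Paneth cells, the check markers Lyz1, Ang4, Mmp7, Itln1, Mptx2 and Habp2 summed to 10.8% of UMIs in WT and 9.66% in KO, and Ptprc, Cd3e and Cd79a, which mark immune cells, had 10 UMIs in WT and 3 in KO together (the fourth immune marker, Lyz2, had 217 and 140). Ctnnb1 was at 57.6 and 37.8 CPM (UMIs per 1000000 UMIs), a log2 ratio of KO to WT of -0.61 (-0.69 to -0.53).

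In Paneth cells the 8 members together made up 38.3% of all UMIs in WT and 36.7% in KO, and 58.9% and 57.5% of the UMIs of the 28 defensin features. Per cell the summed share ran in WT from 16.7% at the 5th percentile over a median of 32.3% to 59.4% at the 95th, and in KO from 16.7% over 24.7% to 52.8%. In deep cells the medians were 36.4% and 35.2%. Shallow cells, with medians of 19.4% in both matrices, were 806 of the 1943 Paneth cells of KO and 1347 of the 4893 of WT.

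Among the plus-strand members, Defa24 took 20.1% of UMIs in WT and 18.3% in KO. Gm15284, its closest relative in coding sequence, took 7.92% and 7.11%. Defa17 took 1.36% and 1.14%. These 3 were detected in nearly every Paneth cell of both matrices (at least 99.8%). The remaining plus-strand members were far lower in UMIs. Defa26 was at 0.234% in WT and 0.187% in KO, Defa23 at 0.173% and 0.148%, and Gm15292 at 0.159% and 0.143%. On the minus strand, AY761184 was at 5.09% in WT and 5.73% in KO, and Gm14851 at 3.29% and 3.97%. The annotated transcript of Gm14851 (351 bases) holds little beyond its 348 coding bases. Whether UMIs from a longer 3-prime end of it went uncounted was not tested, so its rank among the members is uncertain. UMIs counted near the 3-prime end do not grow with transcript length, so the plain shares above are the levels. Divided by annotated length, the share per 100 bases was largest for Defa24 (4.80% and 4.37%) and next for Gm15284 (1.99% and 1.79%). AY761184 (1.01% and 1.14%) and Gm14851 (0.936% and 1.13%) came close only through their annotated lengths of 503 and 351 bases. Defa23 and Gm15292 stood lowest in both matrices. On this scale they changed places between them (0.0421% and 0.0412% in WT, 0.0360% and 0.0372% in KO), which they did not in plain shares.

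**Figure D1:**
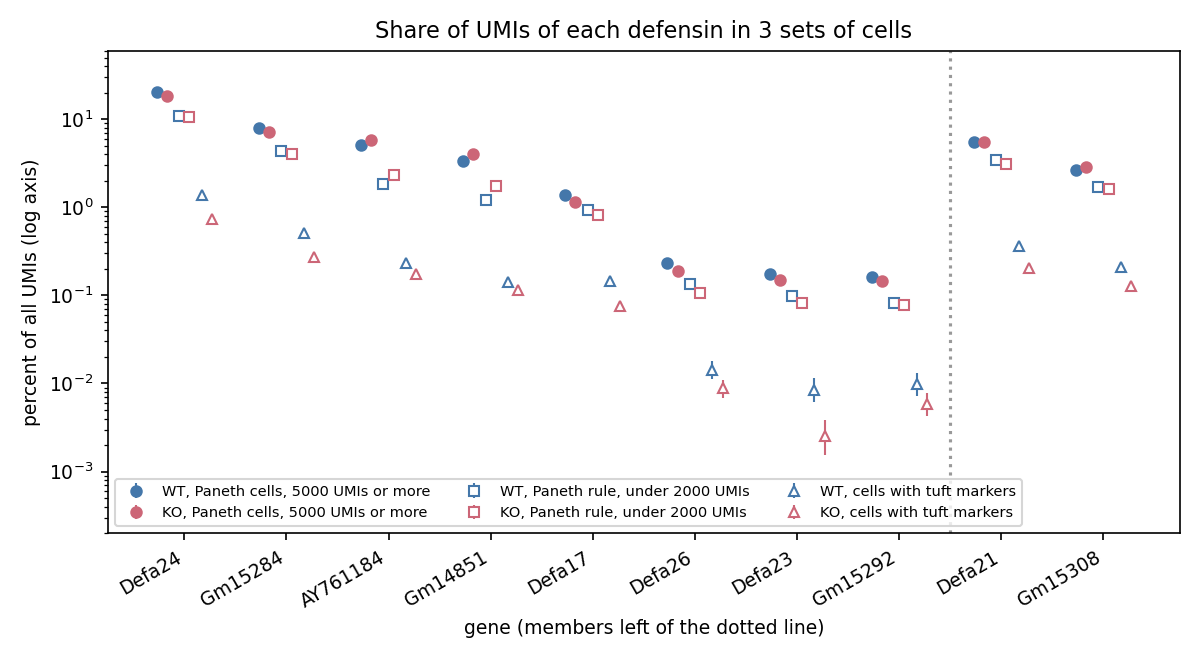
Percent of all UMIs (log axis) taken by each member and by Defa21 and Gm15308 in deep Paneth cells, shallow Paneth cells and cells with tuft markers, WT in blue and KO in red, with 95% counting intervals. Every gene stands highest in deep Paneth cells and lowest in tuft-marker cells, where KO lies below WT for all 10.

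A UMI of Defa23 was present in 88.6% of Paneth cells in WT and 77.7% in KO, one of Gm15292 in 86.2% and 77.6%, and one of Defa26 in 91.7% and 81.5%. In cells with tuft markers, which are not known to make defensins, the same shares were 46.7% and 30.9% for Defa23, 61.7% and 58.2% for Gm15292 and 73.3% and 72.7% for Defa26 (60 and 55 cells, median 7609 and 13813 UMIs), and the other 5 members were found in every such cell. A single UMI of a member in a cell was therefore not read as expression. When Paneth cells were thinned to 5000 UMIs each, leaving out the 1604 WT and 919 KO cells with fewer, Defa23 was present in 99.9% and 99.3%, Gm15292 in 99.0% and 97.7%, and Defa26 in 99.9% and 99.9%.

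Defensin RNA was present in every marker class. The members made up 2.43% of UMIs in WT and 1.40% in KO cells with tuft markers. Over 5 marker classes (tuft, enteroendocrine, stem, goblet and enterocyte) the share lay between 2.23% and 2.79% in WT and between 1.39% and 1.87% in KO, lowest in stem-marker and highest in enterocyte-marker cells. The members were 55.5% to 56.7% of all defensin UMIs in these 5 classes in WT and 55.8% to 58.5% in KO. All summed, Paneth cells held 15.7 times (15.46 to 16.02) the share of the tuft-marker cells in WT and 26.3 times (25.8 to 26.8) in KO.

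Set against the tuft-marker cells, the members were not alike. The source of the defensin UMIs in those cells was not tested. Gm14851 was 23.1 times as high in Paneth as in tuft-marker cells of WT (21.5 to 24.9) and AY761184 21.7 times (20.5 to 23.0), against 14.7 times for Defa24 (14.4 to 15.1), 15.3 times for Gm15284 (14.7 to 15.9) and 9.42 times for Defa17 (8.75 to 10.1). In KO Gm14851 was at 34.6 times (32.4 to 37.0), AY761184 at 32.3 (30.7 to 34.1), Gm15284 at 26.0 (24.97 to 27.17), Defa24 at 24.8 (24.1 to 25.4) and Defa17 at 15.1 (14.0 to 16.4). The minus-strand members stood higher over the tuft-marker cells than these 3 plus-strand members in each matrix, and Defa17 lowest. Defa26 was at 16.4 times (13.0 to 21.0) in WT and 21.4 (16.9 to 27.4) in KO. Gm15292 was at 16.1 (12.2 to 21.7) and 24.3 (18.3 to 33.1), with intervals that reach into those of AY761184. Defa23, with 42 and 20 UMIs in the tuft-marker cells, was at 20.5 times (15.1 to 28.4) and 59.0 times (38.2 to 96.7). These were too few counts to place it in WT. In KO its interval lay above those of both minus-strand members, so the order by strand did not hold for all plus-strand members.

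Shallow Paneth cells differed from deep cells in the mix of defensins. Gm14851 made up 5.08% of defensin UMIs in deep cells of WT, 3.36% in shallow cells and 3.26% in tuft-marker cells. In KO the shares were 6.23%, 5.01% and 4.58%. For AY761184 they were 7.86%, 5.15% and 5.38% in WT and 8.99%, 6.66% and 7.07% in KO, so that both minus-strand members stood nearer to the tuft-marker cells than to the deep cells. Defa17 went the other way, with 2.08%, 2.57% and 3.32% in WT and 1.78%, 2.29% and 3.01% in KO. Most barcodes at the cut were shallow: of the 486 WT cells with a Defa share of 20% to 22%, 434 had under 2000 UMIs, as had 447 of the 495 just outside at 18% to 20%. In KO this was 433 of 471 inside and 555 of 606 outside. The members took 23.1% and 24.9% of UMIs just inside the cut and 20.57% and 21.98% just outside. Whether shallow barcodes are Paneth cells or free RNA was not tested.

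Across deep Paneth cells the shares of the members varied together, which is what they were chosen for. Spearman's rho over the 28 member pairs was positive for 28 of 28 in both matrices, with a median of 0.62 in WT (0.23 to 0.84, 3289 cells) and 0.60 in KO (0.28 to 0.86, 1024 cells). The closest pair was Defa17 and Defa24 (0.84 in WT and 0.86 in KO). Defa23 and Gm14851 had 0.75 in WT and 0.75 in KO, although their coding sequences are of different kind and identical at 64.5% of aligned positions. The loosest pair was Gm15284 and Gm15292 (0.23 and 0.28). Gm15292 had the lowest median rho with the other members (0.37 and 0.45), and Defa24 the highest (0.70 and 0.68).

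The members ran against Defa21 and Gm15308, a pair that had itself been picked with results of these cells known. Over the 16 pairs of a member with one of these 2, the median rho in deep cells was -0.53 in WT (-0.73 to 0.03) and -0.30 in KO (-0.72 to 0.09), and the summed members against the summed pair had -0.66 and -0.45. Defa21 and Gm15308 themselves varied together (0.82 and 0.80). Of the other 14 features of the list that could be ranked, 4 in WT and 5 in KO had a positive median rho with the members, led by Defa3 (0.54 and 0.55), which shares most of its sequence with Defa17, and Gm15308 had the lowest (-0.57 and -0.41). All these shares are parts of 1 total per cell, so that a rise of one lowers the others, and cells of a matrix share 1 library.

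**Figure D2:**
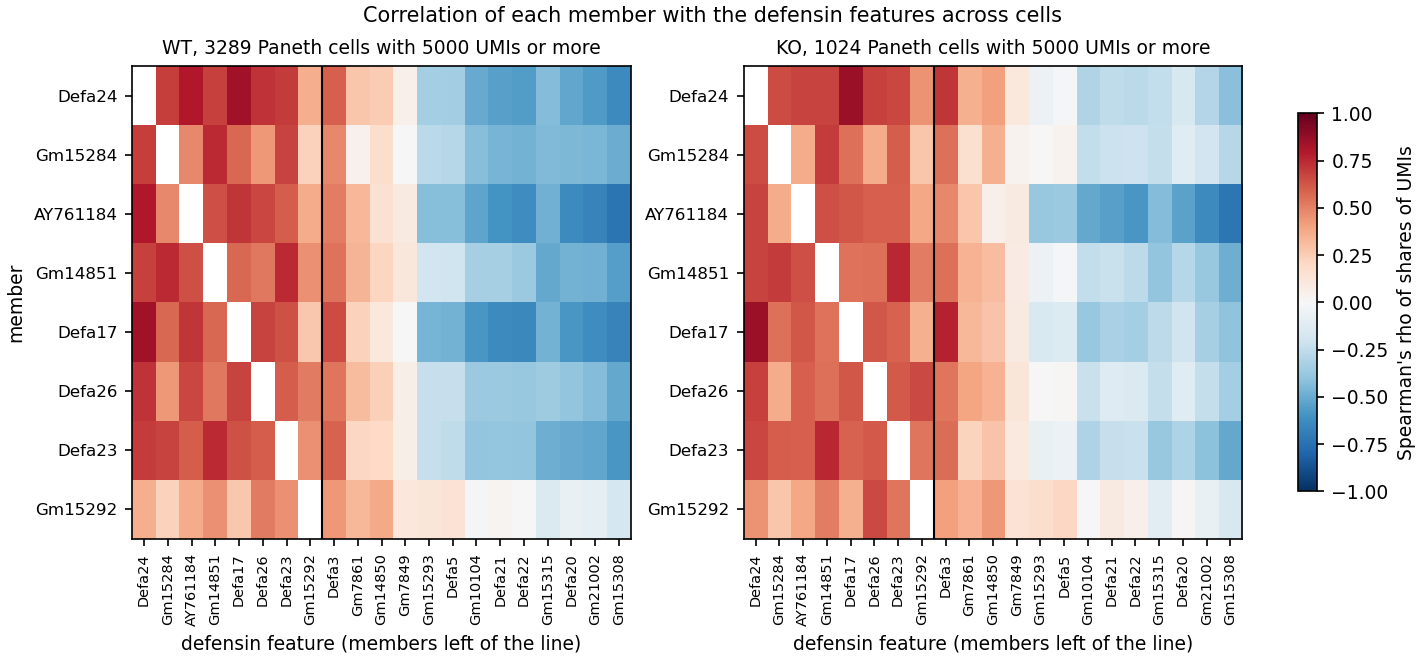
Spearman's rho between each of the 8 members (rows) and the defensin features with a UMI in at least 20% of Paneth cells (columns, members left of the line, 1 feature not shown), across deep cells of WT (3289) and KO (1024), from -1 in blue to 1 in red. The block of members is red throughout in both matrices, and Gm15308 at the far right is blue against nearly all of them.

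The pattern hung on depth. Over all Paneth cells the median over member pairs was 0.58 in WT and 0.48 in KO, and in shallow cells it was 0.09 and 0.06, with 25 of 28 pairs positive in each. The median with Defa21 and Gm15308 was -0.25 and -0.02 over all Paneth cells and -0.01 and -0.01 in shallow cells, and the summed members against the summed pair had -0.26 in WT but 0.09 in KO over all Paneth cells. The summed members and the depth of a cell had a rho of 0.52 in WT and 0.73 in KO over all Paneth cells, and of -0.26 and 0.04 in deep cells, and with the mitochondrial percent of -0.61 and -0.55 over all and -0.35 and -0.39 in deep cells. When deep cells were chosen by non-defensin products instead (3370 and 1096 cells), the medians were 0.62 and 0.61 between members and -0.43 and -0.16 with the pair.

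Read cell by cell, the deep Paneth cells of WT had 2 peaks in the ratio of the members to Defa21 and Gm15308. Every cell of each set had more UMIs of the members than of Defa21 and Gm15308 together (4893 of 4893 Paneth cells in WT and 1943 of 1943 in KO, but also 60 of 60 and 55 of 55 tuft-marker cells, so that this count tells no cells apart). The log2 ratio between them had a first peak at 1.25 to 1.5 (13.2% of deep cells in WT and 14.6% in KO) and in WT a second at 5.25 to 5.5 (5.02%). Bins between 3.25 and 4 held 2.098% to 2.615% of the WT cells each. In KO the bin at 5.25 to 5.5 held 2.73%.

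At least 8 times as many member UMIs were found in 38.4% of deep cells in WT (1263 cells, 36.7% to 40.1%) and in 29.3% in KO (300 cells, 26.5% to 32.2%). Over all Paneth cells these were 28.1% (26.9% to 29.4%) and 16.9% (15.2% to 18.6%). Among shallow cells they were 2.08% and 1.24%, among other kept cells 2.58% and 4.17%, and 0 of the 60 and 55 tuft-marker cells reached this ratio, which allows a share of up to 5.96% and 6.49%. The deep-cell intervals of WT and KO did not overlap, but they cover counting error only, and the difference rests on 1 library per genotype.

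In the deep cells with at least 8 times as many member UMIs, the members made up 50.5% of all UMIs in WT and 48.2% in KO, and Defa21 and Gm15308 2.46% and 2.35%. In the remaining deep cells the members made up 33.5% and 33.1%, and the pair 10.6% and 10.5%. All 8 members were higher in the first group in both matrices, which the ratio itself favors. For AY761184 the shares were 7.63% against 4.06% in WT and 9.08% against 4.61% in KO. For Defa23 they were 0.248% against 0.142% and 0.214% against 0.126%, and for Gm15292 0.184% against 0.150% and 0.171% against 0.135%, the smallest step of the 8. The whole defensin list differed less, at 63.2% against 66.7% in WT and 60.9% against 65.7% in KO. Cells of the first group were shallower (median 18541 against 25862 UMIs in WT, 41259 against 48646 in KO).

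**Figure D3:**
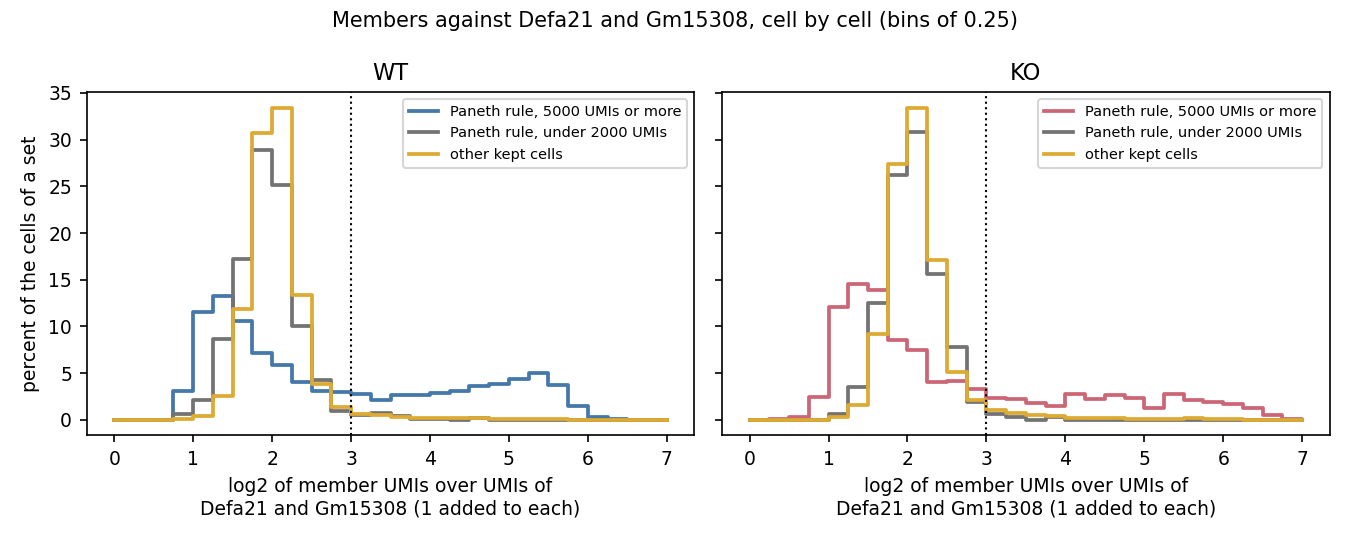
Log2 of member UMIs over UMIs of Defa21 and Gm15308 (1 added to each, bins of 0.25) in deep Paneth cells, shallow Paneth cells and other kept cells, as percent of the cells of a set, with WT left and KO right. The dotted line marks a ratio of 8. Deep cells of WT have 1 peak at 1.25 to 1.5 and 1 at 5.25 to 5.5, whereas shallow and other cells have 1 peak between 1.75 and 2.25.

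Outside the defensins, the feature most like the members was Clps, which encodes the lipase cofactor colipase. Its share had a rho with the summed members of 0.81 in WT and 0.76 in KO over deep cells, the highest of 2984 features ranked by the mean of both matrices, and of -0.65 and -0.56 with Defa21 and Gm15308. Rnase1, a secreted ribonuclease, followed (0.64 and 0.49, and -0.75 and -0.67 with the pair). Next came Guca2b (uroguanylin, 0.53 and 0.48), the lectins Itln1 (0.55 and 0.35) and Reg4 (0.48 and 0.30), the chemokine Ccl6 (0.31 and 0.35), the protease inhibitor Spink4 (0.21 and 0.29), the lipase-related Pnliprp2 (0.32 and 0.18), the ribonuclease Ang4 (0.26 and 0.18) and Mmp7, which processes defensins (0.21 and 0.19). The lowest values were those of Fth1 (ferritin heavy chain, -0.53 and -0.56), Epcam (-0.42 and -0.49), the ribosomal gene Rplp1 (-0.50 and -0.36), Lgals2 (-0.39 and -0.47) and Txn1 (-0.39 and -0.45).

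Not every Paneth product followed the members. Of 18 non-defensin products that could be ranked in deep cells, 9 had a positive rho in both matrices and 7 a negative one in both. Lyz1, lysozyme, had 0.08 in WT and 0.11 in KO. The lectin Reg3g ran against the members (-0.40 and -0.34) and with Defa21 and Gm15308 (0.46 and 0.34). The stress-response gene Nupr1 did the same, with -0.22 and -0.20 against 0.45 and 0.51. Over all Paneth cells (1971 features ranked) Clps was first as well (0.85 and 0.73), again before Rnase1 (0.66 and 0.59) and Itln1 (0.58 and 0.65). The other 7 of the first 10 there were Tmed6, Ang, Ang4, Rnase4, Ramp1, Fxyd3 and Ggh, at 0.41 to 0.52 in WT and 0.54 to 0.65 in KO. The lowest there were Gm42418, the mitochondrial mt-Co3, mt-Atp6 and mt-Co2, and the nuclear Malat1, at -0.62 to -0.52 in WT and -0.68 to -0.49 in KO. All correlations across cells are descriptions, since cells of a matrix share a library and are not replicates.

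The deep cells were divided by Clps share into 4 bins of equal size. The median member share was 30.7%, 33.5%, 39.9% and 55.3% in WT from the lowest to the highest bin, and in KO 28.9%, 33.5%, 36.4% and 49.3%. Defa21 and Gm15308 were at 10.9%, 11.2%, 6.09% and 1.75% in WT and at 9.86%, 10.8%, 8.52% and 1.802% in KO. The largest step of the members in both matrices lay between the last 2 bins. Clps did not enter the Paneth cut. It was on the list of products, which was chosen with earlier results of these data known, so this gradient is a description too. Median UMIs per cell were 23766 (WT) and 42653 (KO) in the lowest bin and 18392 and 41649 in the highest.

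**Figure D4:**
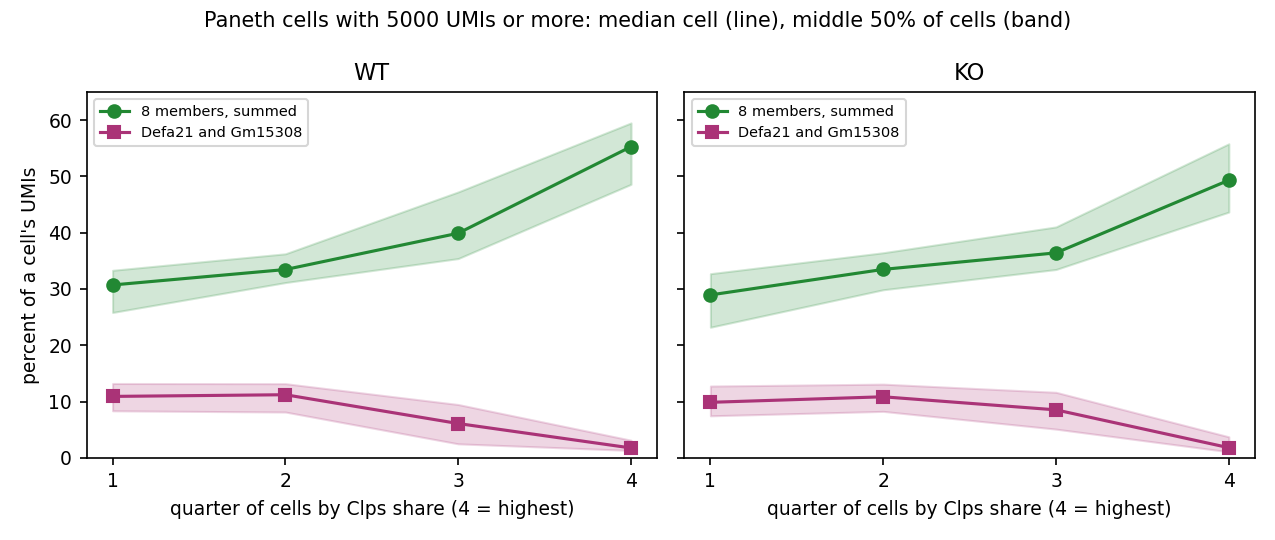
Median percent of a cell's UMIs from the 8 members (green) and from Defa21 and Gm15308 (purple) in 4 equal bins of the deep Paneth cells by Clps share, WT left and KO right, with the middle 50% of cells as bands. The members reach 55.3% in WT and 49.3% in KO in the highest bin, where the pair is lowest.

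The comparison of genotypes asked whether loss of the enhancer went with other levels of these defensins in Paneth cells. Summed, the 8 members had a log2 ratio of KO to WT of -0.06 in Paneth cells (38.3% against 36.7% of UMIs) and of -0.06 in deep cells (38.7% against 37.1%). Single deep cells ran from 24.3% to 60.9% in WT and from 21.6% to 57.9% in KO (5th to 95th percentile), which is the spread of cells within 1 library and no replicate error. Of the 8 members, 0 were at least 2-fold higher and 0 at least 2-fold lower. Of all 11096 genes with at least 50 UMIs in the Paneth cells of both matrices together, 1.78% were at least 2-fold higher in KO and 8.71% at least 2-fold lower, and in deep cells 1.69% and 8.54% of 11001. The median log2 ratio was -0.15 over the members, -0.11 over 23 defensin features with enough UMIs and -0.17 over all genes. A single defensin feature was past 2-fold, Gm15299, which was lower in KO (-1.21, 953 and 246 UMIs).

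The direction divided the members by kind, though not the whole defensin list, as values given below show. Both minus-strand members were higher in KO. Gm14851 stood at 32854 CPM in the WT matrix and 39681 in the KO matrix (log2 ratio 0.27, interval 0.27 to 0.28), and AY761184 at 50867 and 57258 CPM (0.17, 0.169 to 0.173). The 6 plus-strand members were all lower, as was the median of all genes (-0.17). Defa24 stood at 200931 and 183099 CPM (-0.13), Gm15284 at 79174 and 71116 (-0.15), and Gm15292 at 1586 and 1432 (-0.15). Defa23 stood at 1731 and 1480 CPM (-0.23, -0.24 to -0.21), Defa17 at 13599 and 11385 (-0.26), and Defa26 at 2340 and 1875 (-0.32, -0.33 to -0.31). As a mean over cells of the share, which gives shallow cells the same weight as deep ones, the ratio of AY761184 was -0.03, that of Gm14851 0.11 and that of the summed members -0.22. Among all genes the ratios of summed UMIs reached from the 40.5th percentile for Defa26 to the 75.3rd for Gm14851. AY761184 was at the 70.1st. The other plus-strand members lay near the middle of all genes. Defa17 was at the 44.4th percentile, Defa23 at the 46.6th, Gm15284 at the 51.2nd, Gm15292 at the 51.7th and Defa24 at the 52.5th.

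**Figure D5:**
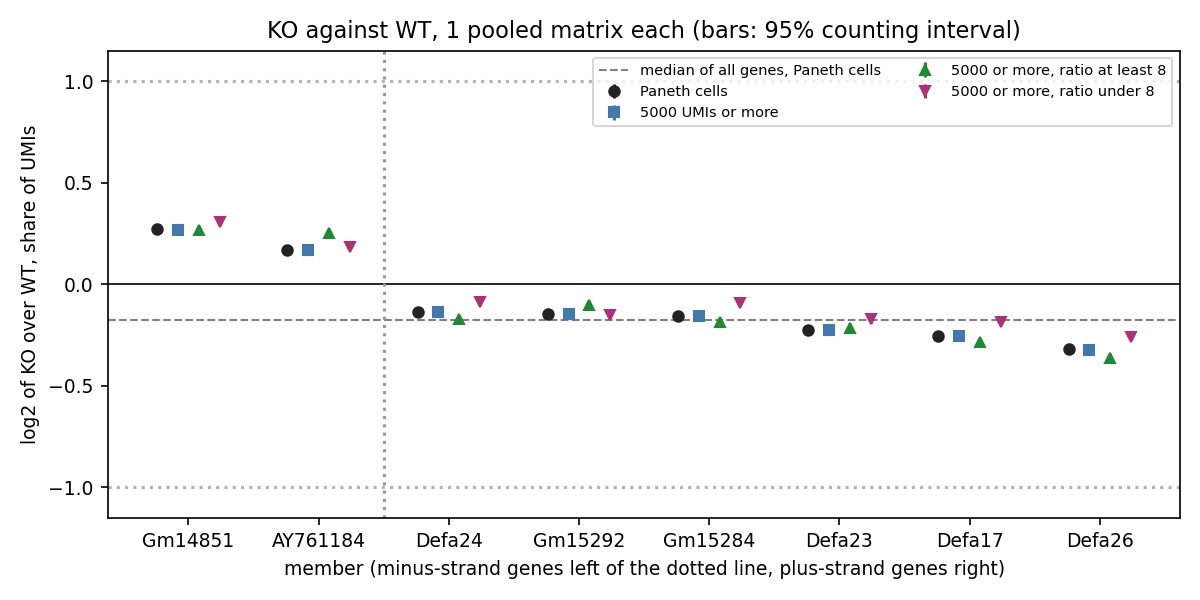
Log2 ratio of KO to WT of each member's share of UMIs in all Paneth cells, deep cells, and deep cells with at least and with under 8 times as many member UMIs as UMIs of Defa21 and Gm15308, with 95% counting intervals, 1 pooled matrix per genotype. Gm14851 and AY761184, on the minus strand, lie above 0 in all 4 sets and the 6 plus-strand members below 0. The dashed line is the median of all genes in Paneth cells, which is below 0 as well (-0.17). No member reaches the dotted lines at a 2-fold difference (as a mean over cells, not plotted, AY761184 was at -0.03).

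The signs were also read on either side of the ratio of 8, which is itself built from the members' UMIs and leaves a wide range of ratios on each side. In deep cells with at least 8 times as many member UMIs, Gm14851 had a log2 ratio of 0.27, AY761184 of 0.25, Defa24 of -0.17 and Defa26 of -0.36. In the remaining deep cells these were 0.31, 0.18, -0.09 and -0.26. In the 257 WT and 113 KO Paneth cells of 2000 to 5000 UMIs neither minus-strand member was higher in KO relative to all UMIs (Gm14851 -0.01, -0.05 to 0.03, and AY761184 -0.26, -0.29 to -0.23), and the other 6 members summed stood at -0.48 (-0.49 to -0.46). Gm7861, a minus-strand feature outside the group, was also higher in KO (0.25), and Gm7849, another, at 43.4 and 40.2 CPM, was not (-0.11), although every 90-base window of Gm7849 also occurs in Gm7861. On the plus strand outside the group, Defa21 was at 0.00 and Gm15308 at 0.10. Defa5, also there, was higher in KO (4137 and 4688 CPM, 0.18, 0.173 to 0.188), whereas Gm15293 (-0.23) and Defa3 (-0.14) were lower. Strand hence did not divide the whole list by direction.

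The ratio between the 2 kinds was higher in KO outside Paneth cells as well. In Paneth cells there were 27.97 UMIs of Gm14851 and AY761184 for every 100 UMIs of the other 6 members in WT against 35.85 in KO. In tuft-marker cells there were 18.3 and 26.4, in enterocyte-marker cells 18.6 and 26.0, and in barcodes left out for mitochondrial UMIs 17.8 and 26.3. The ratio was higher in KO in 30 of 30 overlapping sets of cells read, by 0.26 to 0.83 on the log2 scale. The sets share cells and libraries and are not independent. Genotype, animals and library cannot be told apart here.

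The level relative to all UMIs was also read outside Paneth cells. In tuft-marker cells all 8 members were lower in KO, with log2 ratios of -0.31 for Gm14851 (-0.45 to -0.16), -0.40 for AY761184 (-0.52 to -0.29), -0.88 for Defa24 (-0.93 to -0.83) and -1.75 for Defa23 (-2.60 to -0.95, 42 and 20 UMIs). Other kept cells are all those under the Paneth cut, with 3011 WT and 2707 KO cells at a Defa share of 5% to 20%. There Gm14851 (0.18) and AY761184 (0.27) were higher in KO and the other 6 lower (-0.72 to -0.38). Of these other cells, 212 in WT and 280 in KO had at least 8 times as many member UMIs as UMIs of Defa21 and Gm15308. Over the 5 marker classes, Gm14851 took 0.138% to 0.164% of UMIs in WT and 0.109% to 0.153% in KO. AY761184 took 0.227% to 0.272% and 0.174% to 0.233%. Which cells carried the higher values was not tested. UMIs per Paneth cell differed as well, and with them the mean counts: the summed members had a log2 ratio of mean UMIs per cell of 0.53 in all Paneth cells and 0.89 in deep cells, where KO cells had a median of 46319 UMIs against 23290. Depth and RNA content per cell cannot be told apart in these matrices.

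Other Paneth cell products were read beside the members. Mmp7 stood at 2565 and 2256 CPM in WT and KO (log2 ratio -0.18), Lyz1 at 43552 and 41631 (-0.07), and Clps at 3732 and 3673 (-0.02). Of 27 non-defensin products, 24 had at least 50 UMIs. Over all 11096 genes, 1.78% were at least 2-fold higher in KO and 8.71% at least 2-fold lower. Of the 24 products, 1 was at least 2-fold higher and 3 at least 2-fold lower, with a median of -0.28. The first was Reg3b, a lectin (393 and 1482 CPM, 1.91), which in tuft-marker cells stood higher still (1060 and 9966 CPM, 3.23). The 3 lower ones were Kit (-1.75), Egf (-1.30) and Dll4 (-1.09), a receptor and ligands at 14.7 CPM or less in both matrices. In deep cells 9 products had a positive rho with the members in both matrices. Of these, Itln1 (-0.34), Reg4 (-0.66) and Guca2b (-0.59) were further below 0 in KO than the median of all genes (-0.17). Clps (-0.02), Lyz1 (-0.07) and Mmp7 (-0.18), also of the 9, lay near 0 or near that median. The ratios of Ang4, Pnliprp2 and Habp2, which complete the 9, are not given here.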

How the data were processed

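Single-cell RNA sequencing had been run with 10x Genomics 3-prime chemistry (v2 per the labels) on EpCAM+ DAPI- crypt cells. The authors deposited raw UMI counts per feature and barcode, 1 matrix per genotype, without normalization. The matrix header names Cell Ranger 4.0.0, whereas the submitters' processing notes name Cell Ranger 2.1.1 and build mm10. Which version made the counts is not settled by these, and the annotation is not given in the sources used here. UMIs are counted near the 3-prime end and are not scaled to gene length.

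Members and gene lists were chosen with earlier results of these data known. The genes named are the 8 members, Defa21 and Gm15308, the defensin features with the highest or lowest value, a list of 27 non-defensin Paneth products, Ctnnb1, and the 10 features with the highest and 5 with the lowest correlation with the members (mean of both matrices, features with a UMI in at least 20% of cells). Some other defensin features were named where sequence or strand was compared. The rule asked for the correlation over all Paneth cells, and the ranking in deep cells was added after the data had been seen.

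Counts were summed over the cells of a set and divided by all UMIs of the set (percent or CPM). Intervals at 95% were exact Poisson for levels, exact conditional binomial for ratios and Clopper-Pearson for shares of cells. They cover counting error only. Correlations were Spearman's on shares of UMIs. Cells were kept with at most 30% mitochondrial UMIs and at least 200 genes, both limits that the study's text states. Marker classes were read in kept cells with a Defa share under 5%, tuft, enteroendocrine and stem by at least 3 of 6 markers with a UMI, goblet and enterocyte by at least 3% of UMIs from their markers. Scrublet in scanpy 1.11.5 called 1 of 13095 WT and 0 of 8658 KO cells as doublets and so did not work here. Doublets stayed in the main values. Python 3.11.15, numpy 2.4.6, scipy 1.17.1 and Biopython 1.88 were used, and the intervals and ratios were tested on simulated counts. Gene positions came from GENCODE M21 and promoters from RefSeq (GRCm38.p6). Protein sequences were not used here. Values of 1 feature of the defensin list are not reported here.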

Additional observations from a re-analysis of the deposited data

Results flagged for a closer look

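The ratio of KO to WT had opposite signs in Paneth cells and in tuft-marker cells for 2 members. Gm14851 had a log2 ratio of -0.31 in tuft-marker cells against 0.27 in Paneth cells, and AY761184 had -0.40 against 0.17. The difference between these cell sets was not tested.

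Barcodes left out of the analysis also held UMIs of the members, above the 2.43% and 1.40% of the tuft-marker cells. In WT the members made up 9.40% of UMIs in barcodes with more than 30% mitochondrial UMIs (1898 barcodes) and 12.8% in barcodes with under 200 genes (994 barcodes). In KO these were 7.84% (4084 barcodes) and 10.0% (21 barcodes).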

How the results depend on the processing

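No paired analysis was possible because each genotype was deposited as 1 matrix, and no sample could be left out for the same reason. The summed log2 ratio of KO to WT, -0.06 in Paneth cells, stayed negative under the 12 alternatives. It was -0.0947 with a Defa share of at least 10%, -0.00296 with at least 40%, -0.0754 with Paneth cells chosen by non-defensin products, -0.0618 with at least 500 genes, -0.109 after thinning to 5000 UMIs, -0.0307 without the highest doublet scores (1224 WT and 857 KO cells), -0.0592 without the deepest Paneth cells, -0.107 relative to UMIs outside the defensin list, -0.222 as a mean over cells, -0.0352 relative to defensin UMIs and -0.0621 with at least 5000 UMIs. The number of members past 2-fold was 0 under all 11 alternatives run for it. The share of cells with more member UMIs than UMIs of Defa21 and Gm15308 was 100% throughout, tuft-marker cells included, and so says nothing of stability.

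The median rho between members in WT (0.58) was 0.64 at 10%, 0.49 at 40%, 0.62 with non-defensin products, 0.62 with at least 500 genes, 0.52 thinned, 0.49 as Pearson of log2(CPM + 10), 0.37 on shares of defensin UMIs, 0.83 relative to UMIs outside the list and 0.62 with at least 5000 UMIs. In KO (0.48) it was 0.42 at 10%, 0.41 at 40%, 0.60 with at least 500 genes, 0.43 as Pearson, 0.20 on shares of defensin UMIs, 0.75 relative to UMIs outside the list and 0.60 with at least 5000 UMIs. The share of Paneth cells with at least 8 times as many member UMIs was 32.7% in WT and 23.8% in KO at 6 times, 25.5% and 14.7% at 10 times, 38.4% and 29.3% with at least 5000 UMIs and 38.5% and 29.2% thinned to 5000 UMIs.

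Of 88 ratios of single members, 62 moved by more than their counting interval and 1 changed sign, AY761184 as a mean over cells of the share (-0.0278). The cause was not tested. Gm14851 stayed positive and the 6 plus-strand members negative under all 11. The ratio classes, the alternatives at 5000 UMIs and those relative to UMIs outside the list for the correlation were added after the data had been seen. Depth limits Defa23, Gm15292 and Defa26 in cells under 2000 UMIs.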
